A study of Mus musculus with 12 samples.

Results

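Mitochondrial complex I was followed through the genes whose array annotation gives a symbol beginning with Nduf, which name the nuclear subunits of the complex and several of its assembly factors. The rule found 68 of the 45281 probes on the array and 44 of its 19057 gene symbols. Of these 44 genes, 42 had a probe above background on at least 2 of the 12 arrays and were tested among 12001 features. The 2 others, the core subunit Ndufs1 and the assembly factor Ndufaf6, were not above background on any of the 12 arrays and were not tested. Among the 42, Ndufs5-ps is the symbol of a pseudogene, kept as the annotation gives it. The genes Ndufb1, Ndufs5 and Ndufa4l2 were not analysed here.

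Complex I, the NADH:ubiquinone oxidoreductase, is the entry point of the respiratory chain: its peripheral arm takes electrons from NADH and passes them along a flavin and a row of iron-sulfur clusters to ubiquinone, and its membrane arm moves protons across the inner mitochondrial membrane. Core subunits carry out these reactions, accessory subunits surround and hold them, and assembly factors help to build the complex without staying in it. In the pancreatic β-cell the ATP made from respiration closes potassium channels and so links glucose to insulin release.

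The cells were MIN6, a mouse insulin-secreting β-cell line, and total RNA was read on Illumina bead arrays (MouseWG-6 v2), with 2 arrays in each of 6 groups. In 4 groups the cells carried an rtTA plasmid, whose protein activates tetO sequences in the presence of doxycycline, together with a tetO-184 plasmid that expresses miR-184, and received 1 µg/ml doxycycline for 16, 24, 48 or 72 h. The transfected control (TC) carried the same plasmids without doxycycline, and the untransfected control (CTR) received lipofectamine and doxycycline but no plasmid. TC therefore differed from the induced cells in doxycycline as well as in miR-184, and the time at which either control was harvested is not given. The design text describes biological triplicates, of which the arrays analysed here are 2 per group from 1 cell line, so the p-values rest on the spread between paired arrays pooled over the 6 groups, which may be technical. Slide 1 held the first array and slide 2 the second array of every group, in the same position order, so position and group cannot be told apart. The induced miRNA itself was not measured by a named probe, and its mature strand, with the seed (bases 2 to 8) in capitals, is printed as the agent common to the 4 induced groups (RefSeq, GRCm38.p6, minus strand of chr9:89802263-89802284).
miR-184-3p: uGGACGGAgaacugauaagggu

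Between 15243 and 16737 probes, among them 60 or 61 of the 68 Nduf probes, were above background on each array. Of 11 β-cell markers with a probe, 10 were above background on all 12 arrays, and those of acinar (6), mesenchymal (5), immune (3) and endothelial cells (3) were above it on none. Of 4 ductal markers 1 (Krt7) was above background on all arrays, and their summed signal was 1389 to 1434 at 72 h against 1690 to 2452 in TC. Among 5 markers of other endocrine cells, 2 (Gcg and Ppy) were above background on all arrays, and the summed signal of these markers was 4002 to 7197 at 72 h against 17260 to 25640 in TC. The part of either difference in the results at 72 h was not tested. Values below are log2 normalized intensities, given for slide 1 and then slide 2, with differences as log2 fold changes. As in any bulk sample, less RNA per cell and fewer cells that express a gene cannot be told apart. A call is an adjusted p under 0.05 from limma's moderated test over all 12001 features (Benjamini-Hochberg), and since the 2 slides pair the arrays, the value with slide as a block is given where it changed a call or a count.

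At 72 h of induction, the mRNA of 1 membrane-arm accessory subunit was lower than in TC, 4 more were lower once slide was taken as a block, and none of the 5 tested nuclear core subunits was called. Ndufa8 was the member called lower, 1 of 42, and 0 were called higher, where 2.75% of all features were called lower and 2.73% higher. With slide as a block 5 members were called lower (Ndufa8, Ndufb9, Ndufb5, Ndufb10 and Ndufb8) and 0 higher, where 8.76% of all features were called lower and 10.4% higher. At an unadjusted p under 0.05 the counts were 11 lower and 1 higher, where 12.3% and 13.2% of all features passed. The members called lower were thus 2.38% of the 42 without the block, beside 2.75% of all features, and 11.9% with it, beside 8.76%. Both of these shares were near those of all features. At the unadjusted threshold the share was 26.2%, beside 12.3%. The median log2 fold change over the 42 genes was -0.13 (-0.10 on slide 1 and -0.23 on slide 2), beside 0.00 over all features (-0.24 beside -0.01 under median scaling of the arrays), and the quartiles of the genes were -0.30 and 0.04, beside -0.26 and 0.28 over all features. By sign alone 30 of 42 were lower, beside 50% of all features. Of the 42, 25 were lower on both slides, beside 34% of all features, and 21 had both 72 h arrays under both TC arrays, beside 26.3% of all features.

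**Figure D1:**
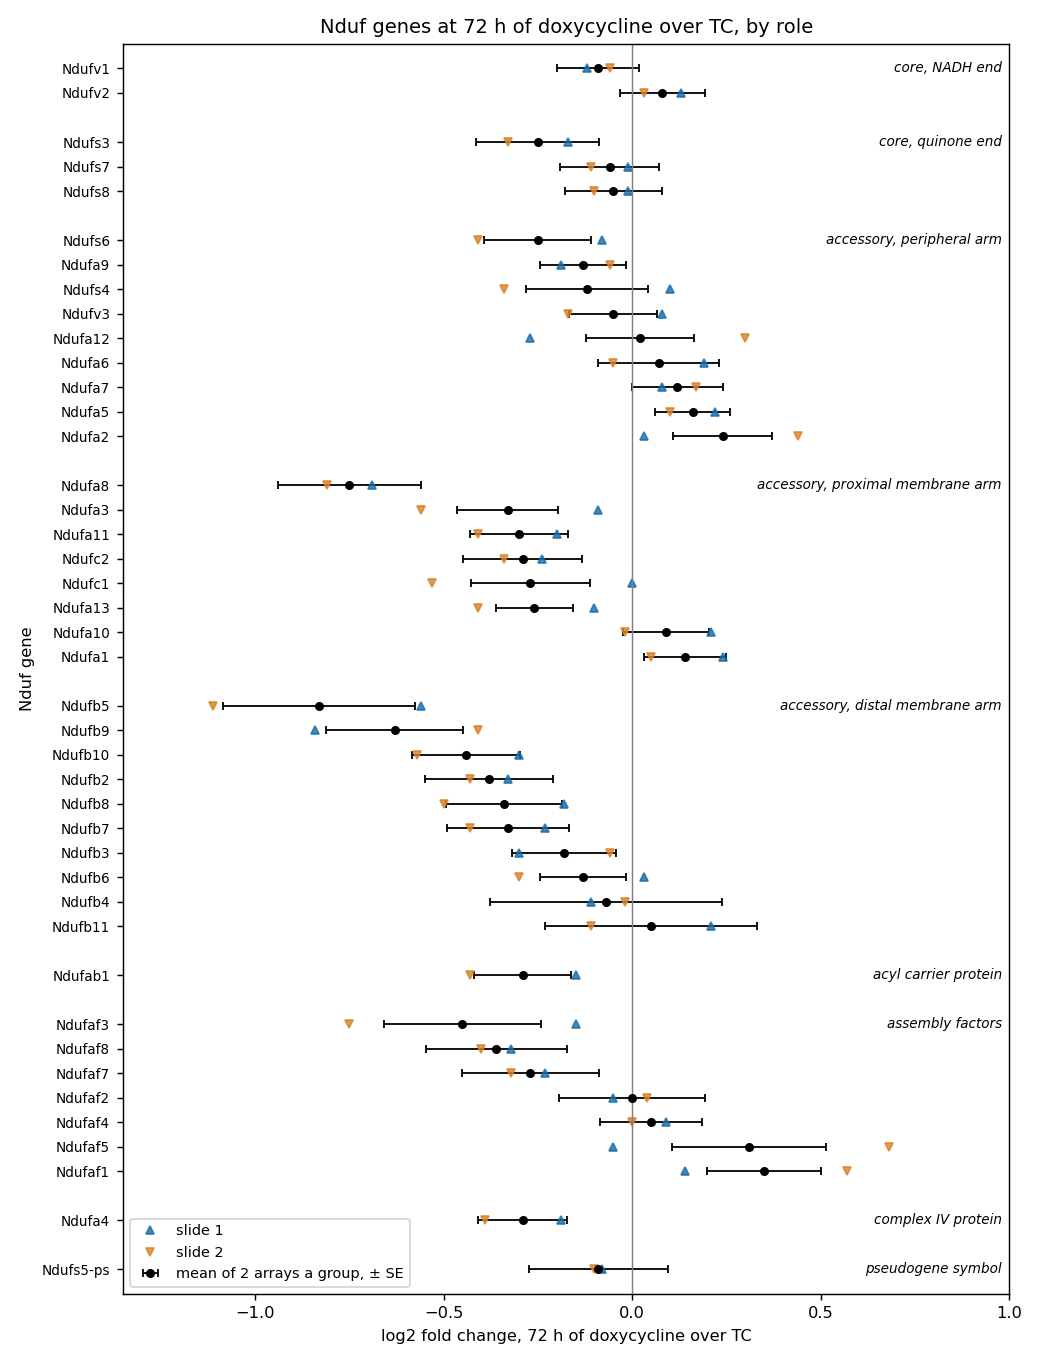
Log2 fold change at 72 h of doxycycline over TC (horizontal axis) of the 42 tested Nduf genes (rows, grouped by role), as black points with the standard error of the fit and triangles for each slide. Ndufa8 lies at -0.75 and Ndufb5 at -0.83, whereas the 5 tested core subunits lie between -0.25 and 0.08.

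Ndufa8, a cysteine-rich accessory subunit on the intermembrane-space side of the proximal membrane arm, read 12.18 and 11.91 at 72 h, against 12.86 and 12.72 in TC. The other arrays read 12.76 and 12.76 at 16 h, 12.80 and 12.76 at 24 h, 12.68 and 11.98 at 48 h and 12.78 and 12.74 in CTR. The second 48 h array thus lay with the 72 h arrays and the first with the remaining groups, and both 72 h arrays were below every array of TC, CTR, 16 h and 24 h. Ndufa8 fell by 0.75 on the log2 scale at 72 h (SE 0.19, adjusted p = 0.0458, limma, n = 2 arrays per group; a change of -40.5%), by sign on both slides (-0.69 and -0.81), and the adjusted p was 0.00766 with slide as a block. A dimmer probe of the gene gave the same log2 fold change of -0.75. The call was lost without the second 72 h array (adjusted p = 0.289), without the first TC array (0.169) or without the second TC array (0.171), and with the block without the second 72 h array (0.0502) or the second TC array (0.0977), with log2 fold changes of -0.61 to -0.88 in all of these fits.

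The other members called lower with slide as a block belonged to the distal membrane arm, the part of the complex farthest from the NADH site. Ndufb9, an LYR-motif protein that binds the mitochondrial acyl carrier protein, read 8.21 and 8.23 at 72 h, against 9.05 and 8.64 in TC. Its other values were 8.64 and 8.83 at 16 h, 8.66 and 8.64 at 24 h, 8.32 and 8.49 at 48 h and 8.90 and 9.12 in CTR. Both 48 h and both 72 h arrays were thus below all 8 arrays of the remaining groups, with the 72 h arrays lowest. The log2 fold change at 72 h was -0.63 (SE 0.18, adjusted p = 0.0625, limma, and 0.0236 with slide as a block). The blocked call was lost without the second 72 h array (-0.62, adjusted p = 0.0957) or the first TC array (-0.36, adjusted p = 0.213).

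Ndufb5, a single-pass membrane protein of the distal arm, read 8.91 and 8.30 at 72 h, against 9.46 and 9.41 in TC. The other arrays read 9.11 and 9.23 at 16 h, 9.14 and 9.18 at 24 h, 9.22 and 8.63 at 48 h and 8.97 and 9.51 in CTR. The slide 2 arrays of 48 and 72 h were the lowest, and the 72 h values were spread more widely than those of TC. The log2 fold change was -0.83 (SE 0.25, adjusted p = 0.0722, limma, and 0.0280 with slide as a block), and it was -0.56 on slide 1 and -1.11 on slide 2. It was called without the first 72 h array, with or without the block (-1.14 in both, adjusted p = 0.00912 and 0.0286). The blocked call was lost without the second 72 h array (-0.52, adjusted p = 0.246), the first TC array (-0.86, adjusted p = 0.0947) or the second TC array (-0.81, adjusted p = 0.184).

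Ndufb10, a second cysteine-rich subunit facing the intermembrane space, read 10.09 and 10.05 at 72 h, against 10.39 and 10.62 in TC. It read 10.48 and 10.53 at 16 h, 10.32 and 10.46 at 24 h, 10.29 and 10.33 at 48 h and 10.37 and 10.57 in CTR. The 72 h arrays were the lowest of the 12, and differed by less from each other than from any other array. The log2 fold change was -0.44 (SE 0.14, adjusted p = 0.0885, limma, and 0.0332 with slide as a block), and a dimmer probe gave -0.25. Ndufb8, a membrane-spanning subunit, read 14.27 and 13.96 at 72 h, against 14.45 and 14.46 in TC, with a log2 fold change of -0.34 (adjusted p = 0.191, limma, and 0.0364 with slide as a block). Its 72 h values were both below TC but overlapped those of 16, 24 and 48 h and CTR, which lay between 14.14 and 14.50, and its dimmer probe had the opposite sign (0.44), so the call rests on 1 of its 2 probes. With the block, Ndufb10 was not called without the second 72 h array (-0.35, adjusted p = 0.191), the first TC array (-0.51, 0.0695) or the second TC array (-0.36, 0.264), nor Ndufb8 without the second 72 h array (-0.28, 0.191) or the second TC array (-0.20, 0.378). The number of members called at 72 h depended on single arrays, with or without the block. The share of all features called in such fits was not computed. With 1 array left out, the median over the 42 genes was -0.22 to -0.10 (-0.23 to -0.08 with the block).

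**Figure D2:**
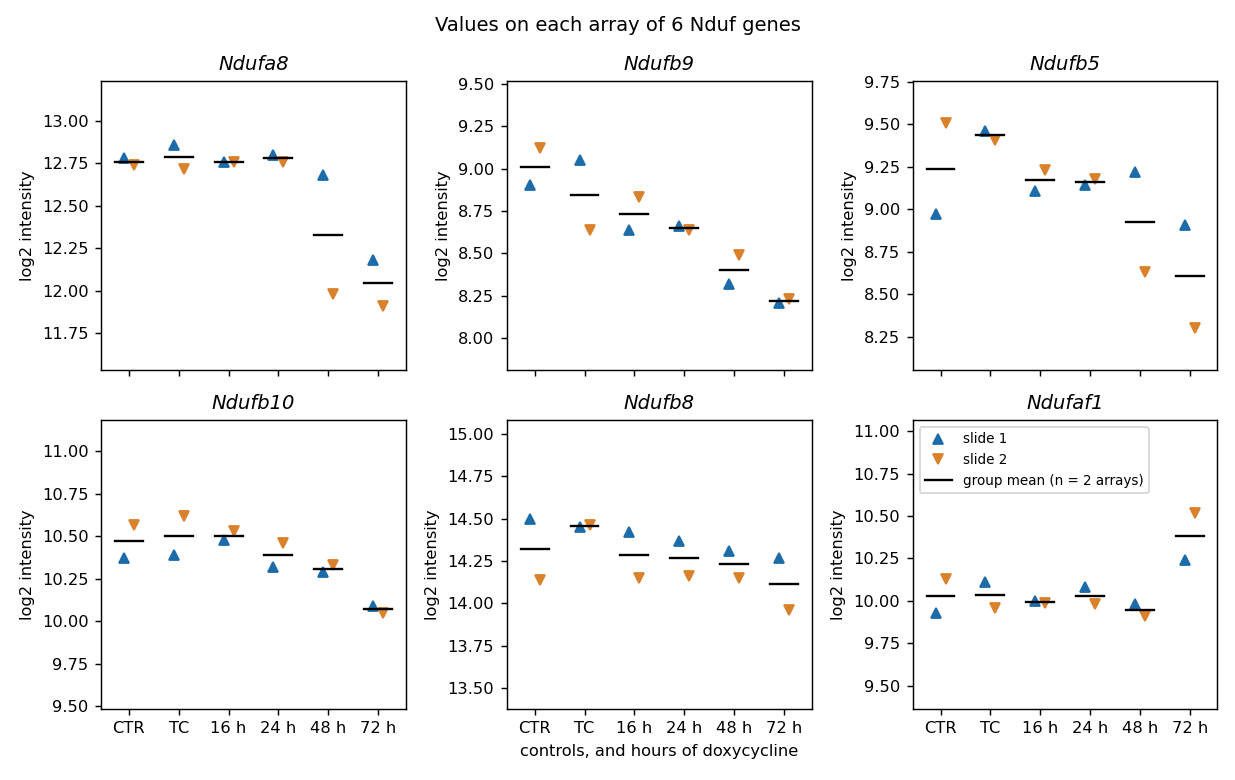
Log2 intensity (vertical axis, the same span in each panel) of Ndufa8, Ndufb9, Ndufb5, Ndufb10, Ndufb8 and Ndufaf1 on each of the 12 arrays, with the controls and then the hours of doxycycline along the horizontal axis, triangles for the slides and bars for the mean of 2 arrays. The 72 h arrays lie lowest for Ndufb10 (10.09 and 10.05) and highest for Ndufaf1 (10.24 and 10.52).

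To let their upstream letters be compared, the promoters of 4 of the 5 called with the block are printed with that of Ndufaf1, the member with the largest positive log2 fold change. Each run is the 250 bases before the annotated start (RefSeq, GRCm38.p6), and 39 of the 42 tested genes had such a window, 41 windows in all. Capitals mark matches on either strand to 7 motifs, named by the factors known to bind them: NRF1 (CGCANGCG), ETS (CCGGAAG), ERR (AAGGTCA), YY1 (ATGGCG), SP1 (GGGCGG), CRE (TGACGTCA) and ATF4 (TGATGNAA). The windows lie at chr2:36049339-36049588 for Ndufa8 (minus strand), chr3:32736813-32737062 for Ndufb5 (plus strand), chr17:24724424-24724673 for Ndufb10 (minus strand), chr19:44555443-44555692 for Ndufb8 (minus strand) and chr2:119662835-119663084 for Ndufaf1 (minus strand).
Ndufa8: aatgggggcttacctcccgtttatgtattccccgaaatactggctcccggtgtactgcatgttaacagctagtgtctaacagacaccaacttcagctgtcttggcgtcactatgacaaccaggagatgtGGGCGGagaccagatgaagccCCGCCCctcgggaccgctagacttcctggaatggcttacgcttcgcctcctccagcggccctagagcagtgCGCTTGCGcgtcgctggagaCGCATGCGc
Ndufb5: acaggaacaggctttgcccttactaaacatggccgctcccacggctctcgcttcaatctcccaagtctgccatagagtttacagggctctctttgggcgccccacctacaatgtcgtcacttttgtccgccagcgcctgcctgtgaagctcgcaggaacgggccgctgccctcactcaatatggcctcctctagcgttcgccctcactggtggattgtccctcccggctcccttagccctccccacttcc
Ndufb10: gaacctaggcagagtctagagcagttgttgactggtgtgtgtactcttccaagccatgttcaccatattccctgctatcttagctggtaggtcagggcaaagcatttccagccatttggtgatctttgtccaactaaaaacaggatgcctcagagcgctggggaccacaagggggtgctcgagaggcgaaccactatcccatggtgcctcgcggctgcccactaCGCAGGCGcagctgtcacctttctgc
Ndufb8: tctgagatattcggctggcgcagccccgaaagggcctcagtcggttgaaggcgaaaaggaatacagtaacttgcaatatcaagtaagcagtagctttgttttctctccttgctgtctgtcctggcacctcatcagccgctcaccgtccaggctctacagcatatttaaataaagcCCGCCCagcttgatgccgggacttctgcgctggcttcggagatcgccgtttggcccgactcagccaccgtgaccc
Ndufaf1: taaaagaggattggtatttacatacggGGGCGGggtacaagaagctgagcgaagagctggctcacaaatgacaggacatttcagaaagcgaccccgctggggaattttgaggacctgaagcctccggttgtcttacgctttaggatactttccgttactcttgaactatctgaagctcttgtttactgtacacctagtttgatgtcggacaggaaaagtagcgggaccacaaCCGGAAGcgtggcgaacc

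The Ndufa8 window held 2 NRF1 matches, beginning 29 and 9 bases before the start, and 2 SP1 matches. Ndufb10 held 1 NRF1 match, beginning 26 bases before the start, Ndufb8 held 1 SP1 match, and Ndufb5 held none of the 7 motifs. Ndufaf1 held 1 ETS match, 18 bases before the start, and 1 SP1 match. Among the 41 member windows 11 held the NRF1 letters (26.8%), beside 6.76% of all 32851 windows of the same length. The shares were 12.2% beside 6.91% for ETS, 4.88% beside 4.08% for ERR, 14.6% beside 5.73% for YY1, 46.3% beside 32.7% for SP1, 7.32% beside 1.55% for CRE and 0% beside 3.45% for ATF4. The member windows were also richer in G and C, with a median of 58.4% beside 52.4%. No motif was found in all 4 windows of the members that were lower, and a match of letters does not show binding.

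Among the core subunits encoded in the nucleus, most of which carry the flavin or iron-sulfur clusters, 0 of 5 tested genes were called by limma at 72 h, and 0 passed an unadjusted p under 0.05. Of the core subunits encoded in mitochondrial DNA, ND1 was called lower with the block and is described with the other mitochondrial genes. Ndufv1, which holds the NADH site and the flavin, read 12.99 and 13.09 at 72 h, against 13.11 and 13.15 in TC (log2 fold change -0.09, SE 0.11). Ndufv2, its iron-sulfur partner, read 13.13 and 13.18 at 72 h, against 13.00 and 13.15 in TC (0.08, SE 0.11). Both lay less than their standard error from no difference. At the quinone end, Ndufs3, which carries no cluster, read 11.82 and 11.47 at 72 h, against 11.98 and 11.80 in TC, and the groups overlapped (log2 fold change -0.25, SE 0.16, adjusted p = 0.362, limma). Ndufs7, which carries the last iron-sulfur cluster before ubiquinone, read 12.15 and 12.22 at 72 h, against 12.16 and 12.33 in TC. Ndufs8, another iron-sulfur subunit, read 12.07 and 12.15 at 72 h, against 12.08 and 12.25 in TC, so that the values of both genes overlapped, with log2 fold changes of -0.06 and -0.05 (SE 0.13 each). Standard errors of this size leave small differences undetectable with 2 arrays per group.

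The accessory subunits are given by their place in the complex, and their counts stand beside 50% of all features lower by sign, 8.76% called lower with the block and 12.3% lower at an unadjusted p under 0.05. Of the 10 tested genes of the distal membrane arm, 9 were lower by sign at 72 h, with a median log2 fold change of -0.34 (-0.26 on slide 1 and -0.42 on slide 2), and 4 were called lower with the block. Of the 8 of the proximal membrane arm, 6 were lower by sign, with a median of -0.28 (-0.10 and -0.41), and 1 was called lower. Of the 9 accessory subunits of the peripheral arm, 4 were lower by sign, with a median of 0.02 (0.08 and -0.05), and 0 were called with or without the block or passed an unadjusted p under 0.05. These counts and medians rest on the brightest probe of each gene. Among all kept probes, dimmer ones of the peripheral-arm genes Ndufa5 (-0.64), Ndufs4 (-0.62) and Ndufs6 (-0.60) were called lower with the block. A dim probe of Ndufv3, of the same arm, was called higher (1.07). The difference between these classes was not tested.

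Within the proximal arm, Ndufa3, a small membrane subunit, read 12.80 and 12.38 at 72 h, against 12.89 and 12.94 in TC (log2 fold change -0.33, adjusted p = 0.150, limma). Ndufa13, also known as GRIM-19, read 13.91 and 13.69 at 72 h, against 14.01 and 14.10 in TC (-0.26, adjusted p = 0.142). Ndufa11, a multi-pass membrane protein at the junction of the arms, read 12.17 and 12.14 at 72 h, against 12.37 and 12.55 in TC (-0.30, adjusted p = 0.166). In these 3 genes both 72 h arrays were below both TC arrays, and none was called. Ndufa1, a small subunit at the junction, read 13.82 and 13.68 at 72 h, against 13.57 and 13.63 in TC (0.14), and Ndufa10, of the nucleoside kinase family, 13.01 and 12.83 at 72 h, against 12.80 and 12.85 in TC (0.09), so not all of the class had the same sign. Ndufc1 and Ndufc2 had log2 fold changes of -0.27 and -0.29. In the distal arm Ndufb2 read 7.69 and 7.54 at 72 h, against 8.02 and 7.97 in TC (-0.38, adjusted p = 0.185). Ndufb7 and Ndufb3 had log2 fold changes of -0.33 and -0.18, Ndufb6 -0.13 and Ndufb4 -0.07. Ndufb11 read 7.36 and 7.41 at 72 h, against 7.15 and 7.52 in TC (0.05), and overlapped. Ndufb4 was above background on 11 of 12 arrays. Ndufab1, the mitochondrial acyl carrier protein, a subunit of the complex as well as a carrier in fatty acid synthesis, read 13.36 and 13.13 at 72 h, against 13.51 and 13.55 in TC (-0.29, adjusted p = 0.180), and all 4 of its kept probes were lower by sign.

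In the peripheral arm, Ndufa2, a subunit with a thioredoxin-like fold, read 13.36 and 13.62 at 72 h, against 13.34 and 13.18 in TC (log2 fold change 0.24, adjusted p = 0.285, limma). Ndufa5 read 13.48 and 13.42 at 72 h, against 13.26 and 13.32 in TC (0.16), and Ndufa7 read 12.68 and 12.74 at 72 h, against 12.60 and 12.57 in TC (0.12). These 3 genes were higher by sign on both slides, and none was called. Ndufs6 and Ndufs4, both near the NADH end and both needed for a stable peripheral arm, had log2 fold changes of -0.25 and -0.12, Ndufa9 had -0.13, and Ndufa6, Ndufa12 and Ndufv3 lay between -0.05 and 0.07. Ndufa4, once counted with complex I and now known as a subunit of cytochrome c oxidase, read 13.25 and 13.04 at 72 h, against 13.44 and 13.42 in TC (-0.29, adjusted p = 0.155). The Ndufs5-ps probe, at -0.09, was not examined for cross-reaction with Ndufs5.

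**Figure D3:**
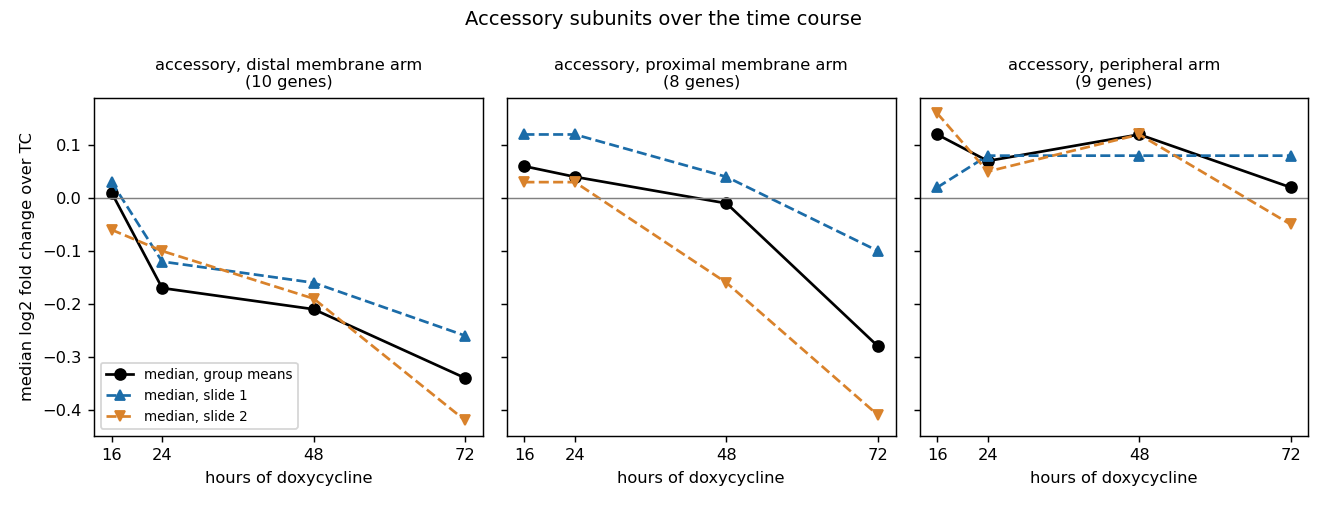
Median log2 fold change over TC (vertical axis) of the accessory subunits of the distal membrane arm (10 genes), the proximal membrane arm (8) and the peripheral arm (9) at 16, 24, 48 and 72 h of doxycycline (horizontal axis), over group means (black) and within each slide (dashed). The distal arm lies at -0.17, -0.21 and -0.34 at 24, 48 and 72 h, and the peripheral arm between 0.02 and 0.12 throughout. Against CTR, which is not drawn, the distal-arm medians were -0.04, -0.17 and -0.27 at 24, 48 and 72 h. Each gene is read from its brightest kept probe.

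Of the 7 assembly factors tested at 72 h, 4 were lower and 3 higher by sign, with log2 fold changes of -0.45 to 0.35 and a median of 0.00, and 0 were called by limma. Ndufaf1, a factor that helps to build the membrane arm, read 10.24 and 10.52 at 72 h, against 10.11 and 9.96 in TC. It read 10.00 and 9.99 at 16 h, 10.08 and 9.98 at 24 h, 9.98 and 9.91 at 48 h and 9.93 and 10.13 in CTR, so that both 72 h arrays were above the 10 others. The log2 fold change was 0.35 (SE 0.15, adjusted p = 0.170, limma, and 0.105 with slide as a block), the 1 member higher at an unadjusted p under 0.05. Ndufaf5, an enzyme that modifies Ndufs7, read 9.37 and 9.99 at 72 h, against 9.42 and 9.31 in TC, and its log2 fold change of 0.31 came from slide 2 (0.68) and not slide 1 (-0.05). Ndufaf3, a factor for the quinone end, read 6.99 and 6.88 at 72 h, against 7.14 and 7.63 in TC (-0.45, adjusted p = 0.200). Ndufaf8 and Ndufaf7 had log2 fold changes of -0.36 and -0.27, Ndufaf4 had 0.05 and Ndufaf2 had a mean of 9.53 in both groups. Of 8 further assembly factors of complex I with other symbols, 0 were called and 0 passed an unadjusted p under 0.05, with a median of -0.15. Acad9, Foxred1, Ecsit and Timmdc1 had the smallest p-values among them, with log2 fold changes of -0.36, -0.31, -0.30 and -0.15.

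At the earlier times no member was called by limma. At 16 h against TC 0 of 42 were called and 0 passed an unadjusted p under 0.05. Of all features 0% and 0.842% did. The median log2 fold change was 0.06 (0.06 on slide 1 and 0.02 on slide 2). Under median scaling of the arrays it was 0.01, beside -0.07 over all features. At 24 h the counts were again 0 and 0, where 0% and 1.15% of all features passed. The median was 0.01, and under median scaling it was -0.08, beside -0.06 over all features. At 48 h 0 were called and 3 passed unadjusted, where 0% and 10.8% of all features did, and the median was -0.08 (-0.06 and -0.12). Under median scaling of the arrays it was -0.25, beside -0.11 over all features. By sign 38 of 42 were then lower in place of 28, which stood beside 48.7% of all features. The share of all features lower by sign under median scaling was not computed. The 3 that passed unadjusted were Ndufa8 (-0.46) and Ndufb9 (-0.44), which were lower, and Ndufa1 (0.25), which was higher. Their adjusted p-values were 0.4175, 0.4175 and 0.4351 (limma). The count at 48 h changed in some fits with 1 array left out. In those fits the median was -0.13 to -0.05 (-0.11 to -0.04 with the block). With all arrays, the slide block changed none of the counts of calls at 16, 24 and 48 h. Spread between the paired arrays was largest at 48 and 72 h. The SD pooled over the Nduf genes (root mean square) was 0.19 in both groups, against 0.13 in TC. Over all features it was 0.34 at 48 h and 0.31 at 72 h, against 0.27 in TC. The fit pooled the spread of each gene over the 6 groups, so this difference between groups did not enter its p-values.

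Across the distal arm the median against TC was 0.01 at 16 h, -0.17 at 24 h, -0.21 at 48 h and -0.34 at 72 h. Across the proximal arm it was 0.06, 0.04, -0.01 and -0.28, and across the peripheral accessory subunits 0.12, 0.07, 0.12 and 0.02. All 4 times share the TC arrays. With CTR in place of TC, the distal-arm medians were 0.01 at 16 h, -0.04 at 24 h, -0.17 at 48 h and -0.27 at 72 h. Those of the proximal arm were 0.10, 0.07, 0.01 and -0.24, and those of the peripheral accessory subunits 0.10, 0.08, 0.08 and 0.08. The distal-arm median of TC over CTR was 0.09 (0.16 on slide 1 and 0.02 on slide 2). By the F test of any difference among TC and the 4 induced groups, 0 members passed and 5 did at an unadjusted p under 0.05, where 0.475% and 16% of all features did. With slide as a block 1 member passed, Ndufa8 (adjusted p = 0.0182, limma, against 0.141 without), where 10.8% of all features did. The number passing, with or without the block, depended on single arrays, and the share of all features passing in those fits was not computed.

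Set against 16 h in place of TC, which compares cells that all had plasmids and doxycycline, 0 members were called at 72 h in either direction, where 1.44% of all features were called lower and 1.62% higher. At an unadjusted p under 0.05, 15 were lower and 1 higher, where 12.2% and 13.3% of all features passed, and the median was -0.19 (-0.15 on slide 1 and -0.24 on slide 2). With slide as a block 5 were called lower and 0 higher, where 8.65% and 9.99% of all features were. These were Ndufa8 (log2 fold change -0.71, adjusted p = 0.0102 with the block, limma), Ndufb10 (-0.43, 0.0349), Ndufa3 (-0.42, 0.0338), Ndufc1 (-0.42, 0.0472) and Ndufa4 (-0.36, 0.0416). Ndufc1, a small proximal-arm subunit, read 12.27 and 11.92 at 72 h, against 12.56 and 12.47 at 16 h. Ndufa3 read 12.80 and 12.38 at 72 h, against 13.02 and 12.98 at 16 h, and Ndufa4 13.25 and 13.04 at 72 h, against 13.42 and 13.58 at 16 h, so that the 72 h arrays of all 3 were below the 16 h arrays. The counts with and without the block depended on single arrays. With 1 array left out, the median was -0.27 to -0.14 (-0.23 to -0.15 with the block). The blocked count was 10 when the 48 h arrays were left out of the fit, an alternative chosen after seeing the data. The share of all features called in these fits was not computed.

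Set against 48 h, 0 members were called at 72 h and 2 passed an unadjusted p under 0.05. Of all features 0% and 4.18% did. The 2 were Ndufa11 (-0.33) and Ndufaf1 (0.44). The median over the 42 genes was -0.11 (-0.02 under median scaling, beside 0.11 over all features). Between the controls, TC against CTR, 0 members were called and 0 passed unadjusted, where 0% and 0.908% of all features did. The median was 0.01 (-0.09 under median scaling, beside -0.10 over all features). With CTR in place of TC, 2 members were called lower at 72 h, where 3.5% of all features were. Ndufb9 averaged 8.22 at 72 h and 9.01 in CTR (log2 fold change -0.79, SE 0.18, adjusted p = 0.0329, limma), and Ndufa8 averaged 12.04 at 72 h and 12.76 in CTR (-0.71, SE 0.19, adjusted p = 0.0473). With slide as a block 5 were called lower, where 9.58% of all features were: Ndufb9, Ndufa8, Ndufb10 (log2 fold change -0.40), Ndufa4 (-0.35) and Ndufab1 (-0.35). The comparisons with TC and with CTR share the 72 h arrays.

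Several genes had more than 1 probe, and the choice of probe mattered for some of them. Each gene above was read from its brightest kept probe, and 14 of the 42 genes had others, for 61 kept probes in all. When all 17556 kept probes were fitted, 1 Nduf probe was called lower and 1 higher at 72 h against TC, where 2.86% and 2.53% of all probes were. With slide as a block 13 were called lower and 1 higher, where 9.3% and 9.67% of all probes were. The 8 further probes called lower with the block were dimmer probes of Ndufa3 (-0.55), Ndufa5 (-0.64), Ndufa8 (-0.75), Ndufab1 (-0.40), Ndufb6 (-0.67), Ndufc1 (-0.54), Ndufs4 (-0.62) and Ndufs6 (-0.60). The brightest probes of Ndufb6, Ndufs4 and Ndufs6 had the same sign but were closer to 0, at -0.13, -0.12 and -0.25. Ndufa5 was 0.16 on its brightest probe, so its 2 probes differed in sign, as did those of Ndufb8 (-0.34 and 0.44), Ndufb11 (0.05 and -0.31) and Ndufv3.

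Ndufv3, a small subunit at the NADH end with alternative isoforms, had probes that read apart. Its brightest probe read 13.68 and 13.41 at 72 h, against 13.60 and 13.58 in TC (log2 fold change -0.05), and a second probe had -0.14. The dim probe (ILMN_2688822) read 7.48 and 7.99 at 72 h, against 6.58 and 6.74 in TC, and rose by 1.07 (SE 0.22, adjusted p = 0.0281 over all kept probes, limma, and 0.00388 with slide as a block). Both 72 h arrays were above the 10 others, of which the second 48 h array was highest at 7.28. The annotation gives this dim probe the same transcript as the second probe. Which Ndufv3 RNA it reads was not examined.

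**Figure D4:**
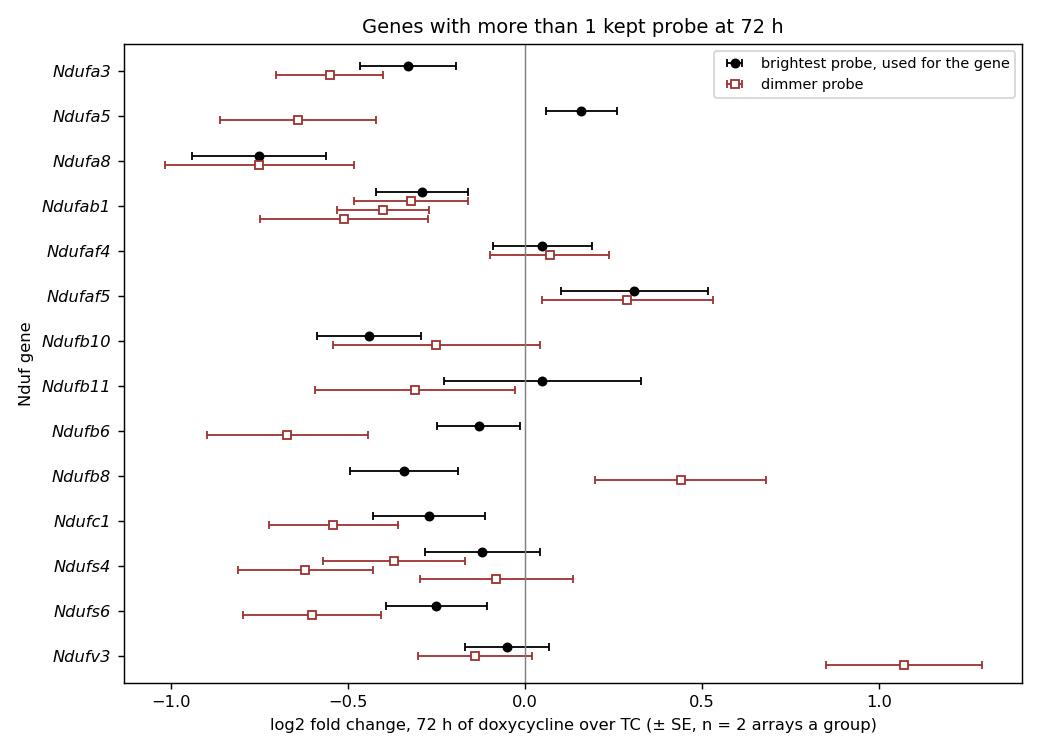
Log2 fold change at 72 h of doxycycline over TC (horizontal axis, ± SE) for every kept probe of the 14 Nduf genes with more than 1 (rows), filled circles for the brightest probe and open squares for dimmer ones. The dim Ndufv3 probe lies at 1.07 and the other 2 at -0.05 and -0.14, while both Ndufa8 probes lie at -0.75.

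Other mitochondrial genes were read in the same way for scale. Their counts stand beside 2.75% of all features called lower and 2.73% higher at 72 h against TC. With the block these shares were 8.76% and 10.4%, and at an unadjusted p under 0.05 they were 12.3% and 13.2%. Of 46 tested genes of respiratory complexes II to V, 2 were called lower and 1 higher at 72 h against TC (9 and 1 with slide as a block), with a median of -0.17. Cox5a, a subunit of cytochrome c oxidase, fell by 0.69 (adjusted p = 0.0475, limma), Uqcrc1, a core protein of complex III, fell by 0.54 (adjusted p = 0.0458), and Uqcrq, a small complex III subunit, rose by 1.20 (adjusted p = 0.0284). The 4 tested complex I subunits encoded in mitochondrial DNA had a median of -0.21 and 0 calls (1 lower at an unadjusted p under 0.05, limma), with ND1 called lower with the block (-0.35, adjusted p = 0.0386). All 11 tested enzymes of the tricarboxylic acid cycle, which supplies NADH to complex I, were lower by sign, with a median of -0.35 and 0 calls (5 lower at an unadjusted p under 0.05, and 4 lower with the block: Mdh2 at -0.54, Ogdh at -0.46, Suclg1 at -0.56 and Fh1 at -0.39). Of 73 mitochondrial ribosomal proteins 0 were called (20 lower and 5 higher at an unadjusted p under 0.05, 11 and 1 with the block), with a median of -0.10. Of 8 iron-sulfur assembly genes the chaperone Hspa9 was called higher (0.96, adjusted p = 0.0420, limma), and with the block Bola3 was called lower (-0.56). Of 13 regulators of mitochondrial biogenesis 0 were called (1 lower and 4 higher at an unadjusted p under 0.05), with a median of 0.23, and with the block the coactivators Ppargc1a (0.81) and Ppargc1b (1.10) and the factor Nrf1 (0.71) were called higher and Pprc1 (-0.60) lower. The medians of complex II, complex IV and the tricarboxylic acid cycle (-0.31, -0.29 and -0.35) were further below 0 than that of the Nduf genes. The Nduf share of the summed signal was 0.957% and 0.900% at 72 h, against 1.01% and 1.07% in TC.

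**Figure D5:**
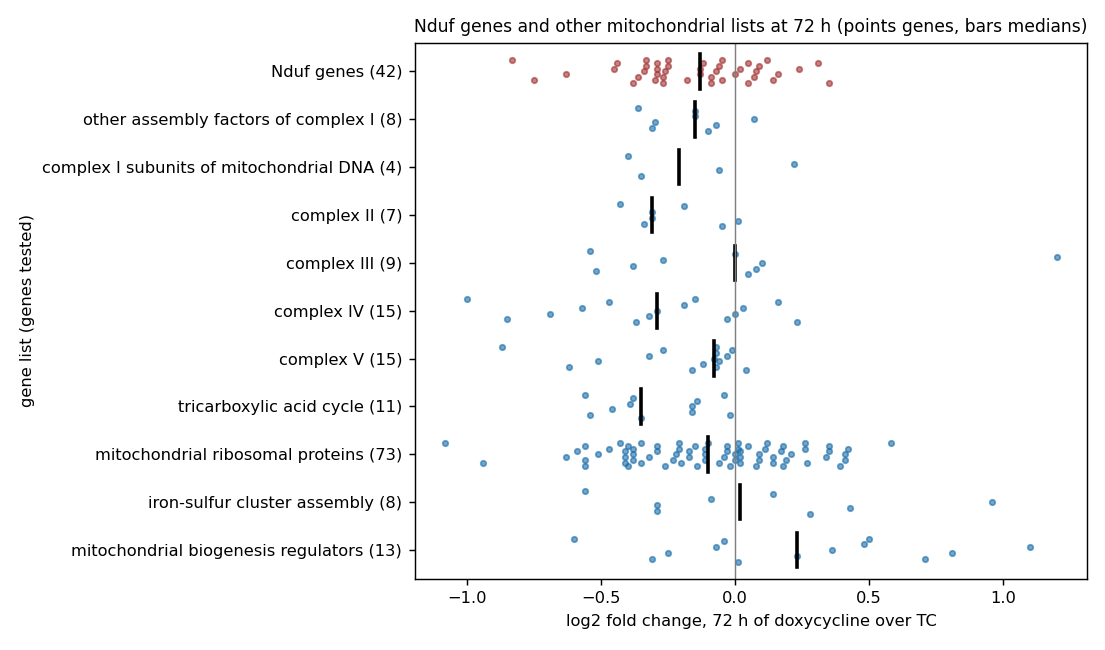
Log2 fold change at 72 h of doxycycline over TC (horizontal axis) of every tested gene (points) in the Nduf list and 10 other mitochondrial lists (rows, with the number of genes), with bars for the medians. The Nduf median lies at -0.13, that of the tricarboxylic acid cycle at -0.35 and that of the biogenesis regulators at 0.23.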

How the data were processed

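Per the labels, total RNA of 12 MIN6 samples was labelled and hybridised to bead arrays, and the submitters' processing notes name lumi (version not given in the sources used here). The authors deposited signal intensities with a detection p-value per probe, not normalized, and a second table of intensity values already quantile-normalized, whose quartiles and maximum were equal on every array.

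The deposited intensities were background-corrected with normexp, using negative controls inferred from the detection p-values, quantile-normalized and log2-transformed (offset 16; neqc, limma 3.58.1, R 4.3.3). A probe was kept where its detection p was below 0.01 on 2 or more of the arrays (17556 probes), a gene was read from its brightest kept probe, and 12001 features (9493 named genes and 2508 probes without a gene name) were tested with limma in 1 fit of 6 groups, with a trend in the variance and Benjamini-Hochberg adjustment at 0.05. Of 45281 probes 34885 had 1 symbol in the platform annotation, 18 had several and 10378 were not in it. The number of arrays limits the precision. The fit was also run on simulated data with planted changes, as a check of the code. Its outcome is not given here, and no result above rests on it.

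Per the file headers, arrays with the same replicate number lay on the same slide, and their deviations from the group means correlated over all features in 15 of 15 pairs of groups (r 0.207 to 0.628), so slide is taken to pair them. Over the Nduf genes r was above 0.1 in 11 of 15 pairs. Per-array values are given for the members with the smallest p at 72 h in each direction (8 each), the 2 with the smallest p in each other comparison, the core subunits, Ndufa4 and members whose probes differed in sign. Alternatives covered background correction, scaling, filter, probe choice, the samples in the fit, slide as a block, the methods' t-test, CTR as control and leaving out each array. The members and gene lists were chosen with earlier results of these data known. Figures were drawn with matplotlib 3.10.9.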

Additional observations from a re-analysis of the deposited data

Results flagged for a closer look

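Some effects had opposite signs at 16 and 72 h against TC on both slides. They were looked for only in the median and the genes chosen for per-array values. Outside that choice, Ndufs6 (0.12 at 16 h and -0.25 at 72 h), Ndufb7 (0.08 and -0.33) and Ndufc2 (0.05 and -0.29) had such signs too. The median over the Nduf genes was 0.06 at 16 h and -0.13 at 72 h. Ndufa3 was 0.09 at 16 h and -0.33 at 72 h, and the difference between the times (-0.42) had an adjusted p of 0.0890 in limma, or 0.0338 with slide as a block. Ndufb2 was 0.03 at 16 h and -0.38 at 72 h (adjusted p of the difference 0.163, and 0.0852 with the block). Ndufs3 was 0.11 at 16 h and -0.25 at 72 h (0.196, and 0.0591 with the block). Ndufs7 was 0.06 at 16 h and -0.06 at 72 h (0.603, and 0.466 with the block). The difference of the medians was not tested.

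The dim Ndufv3 probe, which the fit of 1 probe per gene did not use, had a log2 fold change of 1.07 at 72 h against TC (adjusted p = 0.0281, limma).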

How the results depend on the processing

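With slide as a replicate block, 5 Nduf genes were called at 72 h against TC, 5 at 72 h against 16 h, 5 at 72 h against CTR and 1 in the F test, against 1, 0, 2 and 0 without it. Of the kept Nduf probes 13 were then called lower at 72 h against TC, against 1 without it. The counts at 16, 24 and 48 h, at 72 h against 48 h and for TC against CTR stayed at 0. Ndufa8 kept its direction in every alternative, with adjusted p-values of 0.0521 under median scaling, 0.0595 with no filter, 0.0726 with the mean of kept probes and 0.436 in the methods' t-test after Benjamini-Hochberg, and under 0.05 in the others that kept all arrays. The count at 72 h against TC was 0 under median scaling, no filter, the mean of kept probes and the methods' t-test after adjustment, and 2 with every kept probe or with CTR as control. The fit of only the groups compared called 1 at 72 h against 16 h. The methods' t-test, unadjusted, called 1 at 16 h, 3 at 24 h, 1 at 48 h, 2 at 72 h, 4 at 72 h against 16 h and 2 at 72 h against 48 h. Of all 12001 features it called 221 lower and 168 higher at 16 h, 239 and 207 at 24 h and 288 and 316 at 48 h. It called 664 and 667 of them at 72 h, 630 and 732 at 72 h against 16 h and 196 and 157 at 72 h against 48 h. Without the 48 h arrays, an alternative chosen after seeing the data, 2 were called at 72 h (5 with the block) and 1 against 16 h (10 with the block). The share of all features called without those arrays was not computed.

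Median scaling gave Nduf medians of 0.01, -0.08, -0.25 and -0.24 at 16, 24, 48 and 72 h. Beside these, the medians of all features were -0.07, -0.06, -0.11 and -0.01. At 72 h against 48 h it gave -0.02, beside 0.11 over all features. For TC against CTR it gave -0.09, beside -0.10 over all features. Every kept probe gave a Nduf median of -0.25 at 72 h. Within slide 1 the medians were 0.03 at 24 h, -0.06 at 72 h against 48 h and 0 for TC against CTR, and within slide 2 they were 0.02 at 16 h, -0.23 at 72 h and 0 for TC against CTR. The sign at 72 h turned for Ndufa10 (-0.02) and Ndufv2 (-0.07) under median scaling, for Ndufa5 (-0.24), Ndufb11 (-0.13), Ndufb8 (0.05) and Ndufv3 (0.29) with the mean of kept probes, and for Ndufs8 (0.07) against CTR. The cause was not tested.

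Leaving out 1 array gave 0 to 1 calls at 48 h, 0 to 4 at 72 h (0 to 9 with the block), 0 to 5 at 72 h against 16 h (0 to 14) and 0 to 1 in the F test (0 to 3). The medians ranged over 0.03 to 0.07 at 16 h (0.01 to 0.08 with the block), -0.01 to 0.03 at 24 h (0 to 0.04), -0.13 to -0.05 at 48 h (-0.11 to -0.04), -0.22 to -0.10 at 72 h (-0.23 to -0.08), -0.27 to -0.14 at 72 h against 16 h (-0.23 to -0.15), -0.16 to -0.04 at 72 h against 48 h (-0.18 to -0.04) and 0.01 to 0.01 for TC against CTR (-0.02 to 0.04). The sign at 72 h turned when 1 array was left out for Ndufb11 (-0.14 to 0.23, and -0.16 to 0.26 with the block), Ndufv3 (-0.18 to 0.09, and -0.21 to 0.12), Ndufs8 (-0.14 to 0.03, with and without), Ndufs7 (-0.14 to 0.03), Ndufaf5 (-0.05 to 0.68 with the block) and Ndufv2 (0 to 0.16 with the block). A lone array left in a group was assumed to vary like the other groups, and with 2 arrays per group small differences stay undetectable.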
